A study of Mus musculus with 8 samples.

Results

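Interferon-stimulated genes are switched on when a cell senses type I interferon. The interferon binds the receptor made of Ifnar1 and Ifnar2, the kinases Jak1 and Tyk2 then activate STAT proteins such as Stat2, which joins Irf9 in a complex that binds a DNA element called the interferon-stimulated response element. The products detect viral nucleic acid, degrade RNA, tag proteins with the ubiquitin-like protein Isg15 or trap virus particles, and many are also expressed at a low tonic level in unstimulated macrophages. The 41 genes described here were chosen by symbol from this programme, by a rule that uses no measured value, although earlier results of these data were known. Of these, 40 had a row among the 22063 genes of the deposited table and all 40 passed the filter on low counts, which left 10770 genes for testing. Mx2 was not analysed here.

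The study compared 2 groups of 4 mouse libraries, all labelled as wild-type liver. The control group is described as a high-fat and high-cholesterol (HFHC) diet alone, and the tranilast group as the same diet with tranilast, an anti-allergic drug. In the study's description, the diet-fed mice were male C57BL/6J and received tranilast or its sodium carboxymethylcellulose vehicle by mouth. By that description the diet and vehicle are shared by both groups. The mice were young adults when the diet began. Which of the study's doses the sequenced animals received is not given in the sources used here, and the labels do not say whether each library is a separate animal, so that the p-values below measure only the spread between these libraries.

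The libraries held between 12053036 and 15618787 estimated counts. Levels were scaled with trimmed mean of M-values (TMM) factors and are given as scaled CPM (each count relative to the TMM-scaled total of its library). The labelled tissue was not borne out by its defining markers, and whether the described diet and animals apply to these libraries was not tested. Of 9 hepatocyte markers, 3 were at 0 in all 8 libraries and none exceeded 17 counts, and their summed level was 0 to 1.28 scaled CPM in control and 0 to 1.84 scaled CPM in tranilast. The macrophage marker list (Csf1r, Lyz2, Cd68 and others) summed to between 8001 and 8540 scaled CPM in control and between 7137 and 7710 scaled CPM in tranilast, whereas the 5 Kupffer cell markers summed to at most 0.568 scaled CPM. Of the 10 macrophage markers only 6 passed the filter on low counts. Mertk, C1qa, C1qb and C1qc did not, and reached at most 1, 11, 6 and 8 counts. Marker sums of T and NK cells, B cells and neutrophils stayed at or below 0.457 scaled CPM in every library, those of endothelial and stellate cells at or below 1.12 scaled CPM, and those of conventional dendritic cells at or below 3.20 scaled CPM. Plasmacytoid dendritic cells are specialised interferon producers. Their 6 markers summed to 18.3 to 23.6 scaled CPM, nearly all of it Cox6a2, and Siglech reached at most 14 counts.

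The response element was looked for in the promoters before the expression values are given, since it is the DNA feature that the pathway acts through. RefSeq promoter windows on GRCm38.p6, each running from 250 bases before to 50 bases after a transcription start, were available for 32 of the 41 genes. They were searched on both strands for GAAANNGAAA, that is, 2 direct repeats of GAAA separated by 2 bases, and neighbouring matches were allowed to share a repeat. A match was present in 13 of the 32 genes (40.6%), beside 3.99% of the 27025 genes with a window. The stretches below are shown because they hold the matches of genes that fell (Isg15, Oas1a, Oas3, Bst2 and Gbp3) and of genes that did not pass the test (Ifit1, Ifit3 and Stat2). Each is written 5′ to 3′ on the strand of the gene, ends before the transcription start, and carries the match in capitals, which reads TTTC in place of GAAA where it lies on the other strand.
Isg15, chr4:156200845-156200926, minus strand: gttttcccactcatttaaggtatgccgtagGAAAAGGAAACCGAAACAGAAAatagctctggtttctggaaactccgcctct
Oas1a, chr5:120907526-120907575, minus strand: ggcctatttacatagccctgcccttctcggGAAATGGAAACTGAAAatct
Oas3, chr5:120777695-120777764, minus strand: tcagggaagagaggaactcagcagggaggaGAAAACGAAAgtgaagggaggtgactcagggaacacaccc
Bst2, chr8:71537557-71537632, minus strand: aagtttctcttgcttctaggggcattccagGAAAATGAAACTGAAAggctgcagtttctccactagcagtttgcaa
Gbp3, chr3:142559969-142560043, plus strand: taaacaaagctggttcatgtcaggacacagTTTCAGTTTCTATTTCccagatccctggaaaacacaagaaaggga
Ifit1, chr19:34640755-34640843, plus strand: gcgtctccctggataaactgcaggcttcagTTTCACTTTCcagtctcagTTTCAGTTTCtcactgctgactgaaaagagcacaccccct
Ifit3, chr19:34583343-34583446, plus strand: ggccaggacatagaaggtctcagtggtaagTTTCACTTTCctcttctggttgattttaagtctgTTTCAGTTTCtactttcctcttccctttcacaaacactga
Stat2, chr10:128270248-128270315, plus strand: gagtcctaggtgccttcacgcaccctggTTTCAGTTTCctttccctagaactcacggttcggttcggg

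In Isg15, 3 matches overlapped in a single run that ended 56 bases before the start, and in Oas1a the run ended 4 bases before it. The match was found in 8 of the 22 windowed genes that fell with tranilast and in 5 of the 10 that did not pass the test. A window without a match says only that these letters are not in it.

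Per length, most of the 40 genes were well expressed in the control libraries. Their median level was 36.0 FPKM (fragments relative to transcript length and library depth, as deposited) against 13.9 FPKM over all tested genes, and 37 of the 40 exceeded 10 FPKM. The highest was Ifi44, an interferon-induced protein, at 104 ± 20.9 FPKM (SD, n = 4), followed by Bst2 (tetherin, which holds budding virus at the cell surface) at 99.2 ± 19.9 FPKM, Irf7 at 86.7 ± 15.7 FPKM and Usp18 at 77.9 ± 20.2 FPKM. Ifi44 ranked 685th among the 14492 genes with a control level above 0. The receptor chains stood in the middle of the order, Ifnar2 at 61.2 ± 2.67 FPKM and Ifnar1 at 24.2 ± 1.32 FPKM. The lowest were the GTPases Mx1 at 4.34 ± 2.17 FPKM, Gbp3 at 2.02 ± 0.933 FPKM and Gbp2 at 1.49 ± 0.512 FPKM. Of the 39 neighbouring pairs in this order, only Isg20 and Mx1 had control libraries that did not overlap, so that the order is firm between its ends and not between neighbours.

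**Figure D1:**
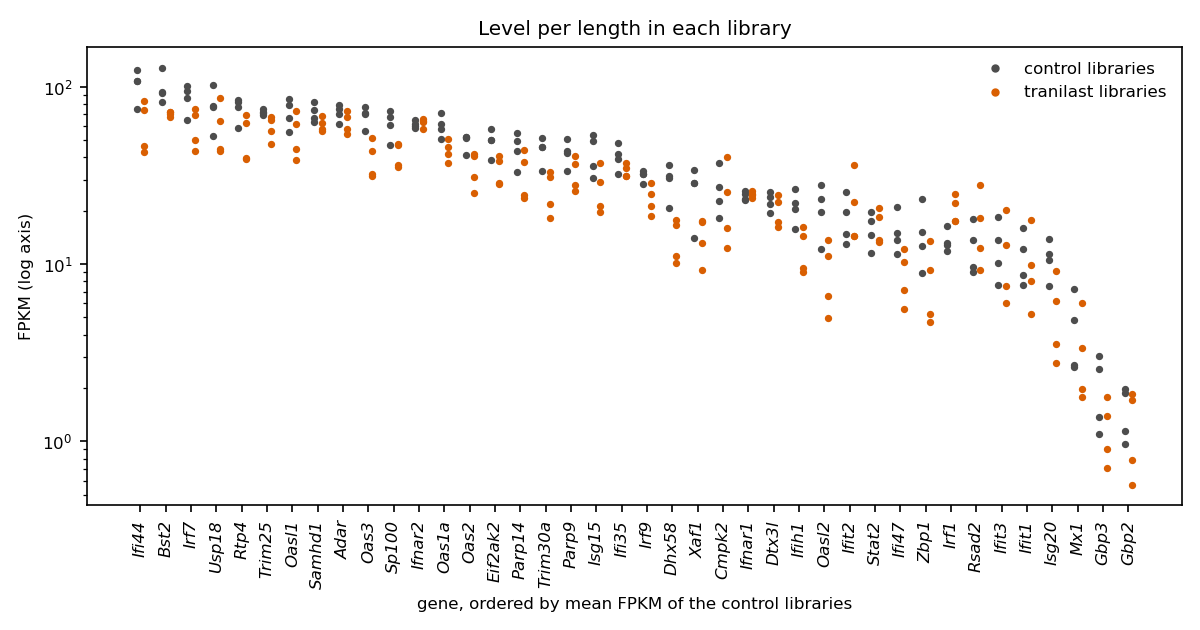
FPKM of each gene in each of the 8 libraries (log axis), genes ordered by the control mean; grey points are control libraries and orange points tranilast libraries. Levels run from 104 FPKM for Ifi44 to 1.49 FPKM for Gbp2 in the control mean, and the points of neighbouring genes overlap.

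Tranilast was then compared with control for each gene. Of the 40 interferon-stimulated genes, 29 fell and 0 rose in edgeR's quasi-likelihood test at an adjusted p under 0.05 over all tested genes. Over the 10770 tested genes, 28.8% were lower and 28.2% higher by the same rule, beside 72.5% of these 40 genes that were lower. At an unadjusted p under 0.05, 30 were lower and 1, Irf1, was higher. DESeq2 called 23 lower and 0 higher, beside 27.8% and 26.7% of all tested genes, and limma-voom 29 and 0, beside 28.7% and 28.1%. In edgeR the median log2 fold change of the 40 genes was -0.57 against 0.01 over all tested genes. The falls were moderate: 0 of the 40 reached an absolute log2 fold change of 1.5, the threshold named in the study's methods, at an adjusted or an unadjusted p under 0.05, beside 1.11% of all tested genes at the adjusted p. A fall of at least 1.5-fold at an adjusted p under 0.05 was seen for 19 of the 40, beside 4.61% of all tested genes. In bulk libraries, less RNA per cell and fewer cells that express a gene cannot be told apart. The summed macrophage markers, mostly Lyz2 and Csf1r, were also lower in every tranilast library than in every control library. Of the 6 tested markers, 4 were lower (Csf1r, Lyz2, Itgam and Fcgr1) and 2 higher (Adgre1 and Cd68). Over all tested genes these shares were 28.8% and 28.2%. The markers are not all of one direction, and the sum follows the most abundant of them. The part of macrophage content in the falls was not tested.

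Separation of the libraries gave a different picture. In 12 of the 40 genes (30%), all 4 tranilast libraries lay below the lowest control library, and the same held for 25.2% of all tested genes, so that this share was close to the background. The opposite separation was seen in 0 of the 40 genes and in 24.5% of all tested genes. The separated genes were Irf9, Ifih1, Dhx58, Eif2ak2, Trim25, Oas1a, Oas2, Oas3, Ifi47, Bst2, Trim30a and Sp100, and each gave p = 0.0286 in the exact two-sided permutation test of log2(scaled CPM + 0.1), the smallest value that 4 against 4 libraries allow. The number of separated genes rested on single libraries. It was 24 (60%) without control 4 and 21 (52.5%) without tranilast 1, beside 26.9% and 26.5% of all tested genes in the same libraries. Control 4 was the lowest control library for 36 of the 40 genes, and tranilast 1 the highest tranilast library for 38. Over all tested genes they held these places for 22.4% and 25.1%. Leaving out either therefore favours separation in this set, and these 2 shares are no test of it.

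**Figure D2:**
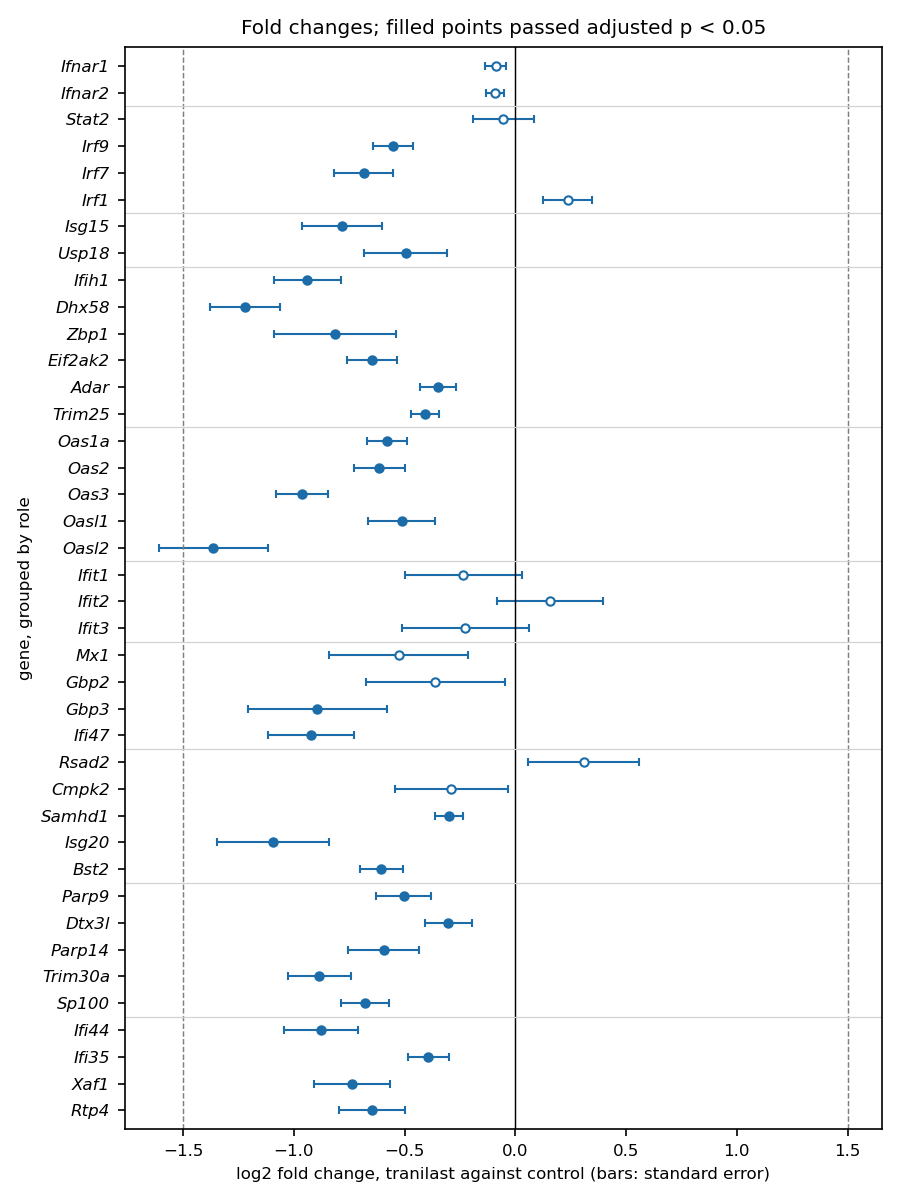
Log2 fold change of each gene, tranilast against control, with its standard error, grouped by role; filled points passed an adjusted p under 0.05 and dashed lines mark an absolute value of 1.5. All 29 filled points lie below 0, and no point reaches a dashed line.

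Neither receptor chain passed the test. Ifnar1 had 93.1, 104, 90.5 and 99.1 scaled CPM in control libraries 1 to 4 and 86.7, 94.2, 92.6 and 90.6 scaled CPM in tranilast libraries 1 to 4, with a log2 fold change of -0.09 ± 0.05 (SE; edgeR adjusted p = 0.12). Ifnar2 had 93.1, 95.9, 95.7 and 96.8 scaled CPM in control and 83.9, 93.5, 91.5 and 89.1 scaled CPM in tranilast, at -0.09 ± 0.04 (adjusted p = 0.067). The groups overlapped for both chains, and these were among the steadiest genes of the set, with the highest control library at most 1.15 times the lowest. The sign of both differences turned with library size alone and with FPKM. Ifnar1 passed the test as lower without control 3 (adjusted p = 0.0468), and Ifnar2 without tranilast 2 (adjusted p = 0.0474).

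Among the 4 transcription factors, Irf9 and Irf7 fell while Stat2 and Irf1 did not pass the test, beside 28.8% of all tested genes that fell. Irf9, the DNA-binding subunit of the complex with Stat2, had 81.3, 87.3, 83.3 and 72.8 scaled CPM in the control libraries and 67.5, 50.7, 59.3 and 44.4 scaled CPM in the tranilast libraries. Its log2 fold change was -0.55 ± 0.09 (adjusted p = 4.75e-05), with no overlap. Irf7, which amplifies interferon production and is itself interferon-induced, had 173, 199.7, 188 and 128 scaled CPM in control and 136, 89.0, 124 and 80.9 scaled CPM in tranilast, and fell by 0.69 ± 0.13 on the log2 scale (adjusted p = 0.000297). Here tranilast 1 lay above control 4. Stat2 had 66.7, 90.2, 79.9 and 53.0 scaled CPM in control and 87.7, 56.5, 78.0 and 57.6 scaled CPM in tranilast, a log2 fold change of -0.05 ± 0.14 (adjusted p = 0.757). The Stat2 groups covered the same range, with control 2 and tranilast 1 the highest of each. Irf1, which also responds to type II interferon, was at 28.1 ± 3.36 scaled CPM in control and 33.2 ± 6.47 scaled CPM in tranilast (SD, n = 4). Its log2 fold change was 0.24 ± 0.11 (adjusted p = 0.0742), and it passed the threshold, as higher, in 8 of the 19 alternatives, among them the upper-quartile factors, the library size alone and the FPKM values.

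Both genes of the Isg15 system in the set fell, beside 28.8% of all tested genes. Isg15 had 26.2, 39.2, 36.6 and 22.4 scaled CPM in control and 25.3, 14.3, 19.7 and 13.2 scaled CPM in tranilast, with a log2 fold change of -0.78 ± 0.18 (adjusted p = 0.00116). Only tranilast 1 reached into the control range. Usp18, the protease that removes Isg15 from proteins and restrains the receptor, went from 142 ± 37.9 to 101 ± 35.0 scaled CPM, at -0.50 ± 0.19 (adjusted p = 0.0297). That call was lost in 10 of the 19 alternatives, among them DESeq2 (adjusted p = 0.177), both FPKM settings and each of control 1, control 2, control 3, tranilast 2 and tranilast 4 left out.

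All 6 sensors and RNA-binding regulators of the set fell, beside 28.8% of all tested genes. Of these 6, 4 showed no overlap, beside 25.2% of all tested genes that were separated as lower. Ifih1 (MDA5, a receptor for long double-stranded RNA) had 99.0, 125, 105 and 73.8 scaled CPM in control and 68.0, 41.2, 62.0 and 40.1 scaled CPM in tranilast, at -0.94 ± 0.15 (adjusted p = 3.51e-05). Dhx58 (LGP2, its regulator) had 76.1, 91.8, 79.3 and 51.9 scaled CPM in control and 41.2, 25.8, 38.5 and 23.5 scaled CPM in tranilast, at -1.22 ± 0.16 (adjusted p = 3.28e-06). Every tranilast library of these genes was below control 4, the lowest of the controls. Zbp1, a sensor of Z-form nucleic acid that can start cell death, had 14.7, 28.0, 19.7 and 10.9 scaled CPM in control and 17.6, 7.38, 11.1 and 5.81 scaled CPM in tranilast, at -0.81 ± 0.28 (adjusted p = 0.0181), and here the groups overlapped. The kinase Eif2ak2 (PKR) went from 221 ± 36.1 to 141 ± 27.5 scaled CPM, the RNA-editing enzyme Adar from 355 ± 35.5 to 279 ± 42.6 scaled CPM and the ubiquitin ligase Trim25 from 342 ± 24.1 to 258 ± 31.3 scaled CPM. Their log2 fold changes were -0.65, -0.35 and -0.41. The call of Zbp1 was kept in 13 of the 19 alternatives (adjusted p of up to 0.117, lost with DESeq2, FPKM plus 1 and each of control 2, control 3, tranilast 2 and tranilast 4 left out), and that of Adar in 17 (lost with both FPKM settings, adjusted p of up to 0.156).

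All 5 genes of the set from the oligoadenylate synthetase family fell as well, beside 28.8% of all tested genes. Among relatives outside the set, Oas1g fell (log2 fold change -0.26, adjusted p = 0.0126) and Oas1c did not pass the test (0.07, adjusted p = 0.802). Both lie outside the naming rule given below. The synthetases make the second messenger that activates RNase L. Oas3 had 337, 368.5, 326 and 262 scaled CPM in control and 209.5, 135, 187 and 132 scaled CPM in tranilast, at -0.96 ± 0.12 (adjusted p = 1.37e-06). Oasl2 had 50.8, 71.6, 63.3 and 32.0 scaled CPM in control and 32.2, 14.04, 27.2 and 11.8 scaled CPM in tranilast, at -1.36 ± 0.25 (adjusted p = 0.000123). This was the largest fold change of the 40 genes, with tranilast 1 level with control 4. Oas1a went from 119 ± 16.5 to 79.4 ± 10.7 scaled CPM, Oas2 from 193 ± 20.9 to 127 ± 30 scaled CPM and Oasl1, which represses translation of Irf7 mRNA, from 163 ± 30.7 to 115 ± 33.8 scaled CPM. The call of Oasl1 was lost with DESeq2 (adjusted p = 0.0738) and both FPKM settings (up to 0.0966). The 3 Oas genes lie together at chr5:120730333-120907521 and the 2 Oasl genes at chr5:114896936-114937915 (GENCODE M21 on GRCm38), so neighbours of a cluster are not independent loci.

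The tetratricopeptide proteins Ifit1, Ifit2 and Ifit3, which bind viral RNA and are often used to read out an interferon response, did not pass the test with all 8 libraries. Ifit1 was at 30.7 ± 10.5 scaled CPM in control and 26.2 ± 13.9 scaled CPM in tranilast, at -0.24 ± 0.26 (adjusted p = 0.465). Ifit3 was at 22.7 ± 8.64 and 19.5 ± 10.8 scaled CPM, at -0.23 ± 0.29 (adjusted p = 0.52). Ifit2, whose separate values are given because they were seen to spread most evenly over both groups, had 56.0, 99.4, 77.9 and 51.4 scaled CPM in control and 133, 53.1, 81.9 and 49.7 scaled CPM in tranilast, at 0.16 ± 0.24 (adjusted p = 0.598). In tranilast 1 all 3 were higher than in any control library, and in tranilast 4 all 3 were lower than in any control library. Leaving out tranilast 1, the highest tranilast library for all 3, changed the calls of Ifit1 and Ifit3 and not that of Ifit2. Without it, Ifit1 was lower at -0.65 (adjusted p = 0.0141) and Ifit3 at -0.64 (adjusted p = 0.0344), while Ifit2 was at -0.22 and did not pass (adjusted p = 0.325). Ifit1 was also lower with control 2 and tranilast 1 both left out (adjusted p = 0.0446), whereas Ifit3 did not pass there (-0.39, adjusted p = 0.126).

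Of the 4 tested interferon-induced GTPases, 2 (Gbp3 and Ifi47) fell, beside 28.8% of all tested genes. Ifi47, an immunity-related GTPase, had 24.3, 37.0, 27.0 and 20.4 scaled CPM in control and 20.2, 11.2, 16.9 and 9.33 scaled CPM in tranilast, at -0.92 ± 0.19 (adjusted p = 0.000521), with no overlap. The guanylate-binding protein Gbp3 had 3.06, 8.20, 7.15 and 3.84 scaled CPM in control and 4.62, 2.32, 3.59 and 1.57 scaled CPM in tranilast, at -0.89 ± 0.31 (adjusted p = 0.0218). Its counts were low, 24 to 118 per library, and 2 tranilast libraries reached into the control range. Its call was kept in 12 of the 19 alternatives and lost with DESeq2 (adjusted p = 0.0985), both FPKM settings (up to 0.129) and each of control 2, control 3, tranilast 2 and tranilast 4 left out (up to 0.0947). Mx1 was at 11.4 ± 5.36 and 7.96 ± 4.47 scaled CPM (adjusted p = 0.161) and Gbp2 at 3.78 ± 1.25 and 2.97 ± 1.57 scaled CPM (adjusted p = 0.342) in control and tranilast. Without tranilast 1, Mx1 was lower at -0.97 (adjusted p = 0.00772) in place of -0.53, and it was also called with no filter (adjusted p = 0.0255) and with control 2 and tranilast 1 both left out (adjusted p = 0.0263).

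Of the 5 other antiviral effectors, 3 (Isg20, Bst2 and Samhd1) fell, beside 28.8% of all tested genes, while Rsad2 and Cmpk2 did not pass the test. The exonuclease Isg20 had 12.2, 15.0, 11.2 and 8.51 scaled CPM in control and 9.30, 3.69, 6.23 and 2.87 scaled CPM in tranilast, at -1.09 ± 0.25 (adjusted p = 0.00123), with only tranilast 1 inside the control range. Bst2 went from 81.9 ± 16.7 to 53.9 ± 1.83 scaled CPM, at -0.60 ± 0.10 (adjusted p = 3.07e-05). Its 4 tranilast libraries lay within a 1.08-fold range, unlike most of the set. Samhd1, which depletes deoxynucleotides, went from 203 ± 21.6 to 165 ± 14.3 scaled CPM. Rsad2 (viperin) and the nucleotide kinase Cmpk2 are neighbours on chromosome 12 transcribed away from each other. Rsad2 was at 49.6 ± 16.2 scaled CPM in control and 61.6 ± 30.4 scaled CPM in tranilast (adjusted p = 0.307), and Cmpk2 at 87.9 ± 27.2 and 72.2 ± 38.2 scaled CPM (adjusted p = 0.35). Without tranilast 1, Cmpk2 was lower at -0.68 (adjusted p = 0.00815) in place of -0.29, and it was also called with control 2 and tranilast 1 both left out (adjusted p = 0.0216).

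All 5 ADP-ribosylation, ubiquitin and nuclear body factors of the set fell, beside 28.8% of all tested genes. Trim30a, a tripartite-motif protein, had 179, 204, 180 and 132 scaled CPM in control and 120, 79.1, 113 and 66.1 scaled CPM in tranilast, at -0.88 ± 0.14 (adjusted p = 3.79e-05). Sp100, a nuclear body protein, had 109, 131, 119 and 84.1 scaled CPM in control and 79.9, 61.1, 77.0 and 59.3 scaled CPM in tranilast, at -0.68 ± 0.11 (adjusted p = 3.61e-05). Neither gene overlapped between groups. Parp9 and its partner, the ubiquitin ligase Dtx3l, went from 129 ± 20.7 to 91.2 ± 21.5 scaled CPM and from 125 ± 14.6 to 101 ± 21.0 scaled CPM. Both have 458 exon bases in common on opposite strands, and since the deposited counting is not stated to use strand their reads cannot be fully told apart. The ADP-ribosyltransferase Parp14 went from 350 ± 72.4 to 232 ± 72.5 scaled CPM. The call of Dtx3l was kept in only 10 of the 19 alternatives and lost with DESeq2 (adjusted p = 0.125), upper-quartile factors, library size alone, both FPKM settings (up to 0.253) and each of control 2, control 3, tranilast 2 and tranilast 4 left out. That of Parp14 was lost with DESeq2 (adjusted p = 0.0509) and both FPKM settings, and that of Parp9 with both FPKM settings.

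The remaining 4 genes fell too, beside 28.8% of all tested genes. Ifi44 had 327, 381, 330 and 228 scaled CPM in control and 235, 129, 207 and 119.5 scaled CPM in tranilast, at -0.88 ± 0.17 (adjusted p = 0.000224). Xaf1, which antagonises an inhibitor of apoptosis, had 26.0, 34.7, 28.1 and 17.7 scaled CPM in control and 20.2, 13.7, 18.5 and 11.7 scaled CPM in tranilast, at -0.74 ± 0.17 (adjusted p = 0.00128). In both, control 4 lay within the tranilast range. Ifi35 went from 55.9 ± 9.42 to 42.6 ± 3.79 scaled CPM and Rtp4, a receptor chaperone, from 90.8 ± 14.8 to 58.2 ± 17.4 scaled CPM. The call of Ifi35 was lost with both FPKM settings (adjusted p of up to 0.0738).

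**Figure D3:**
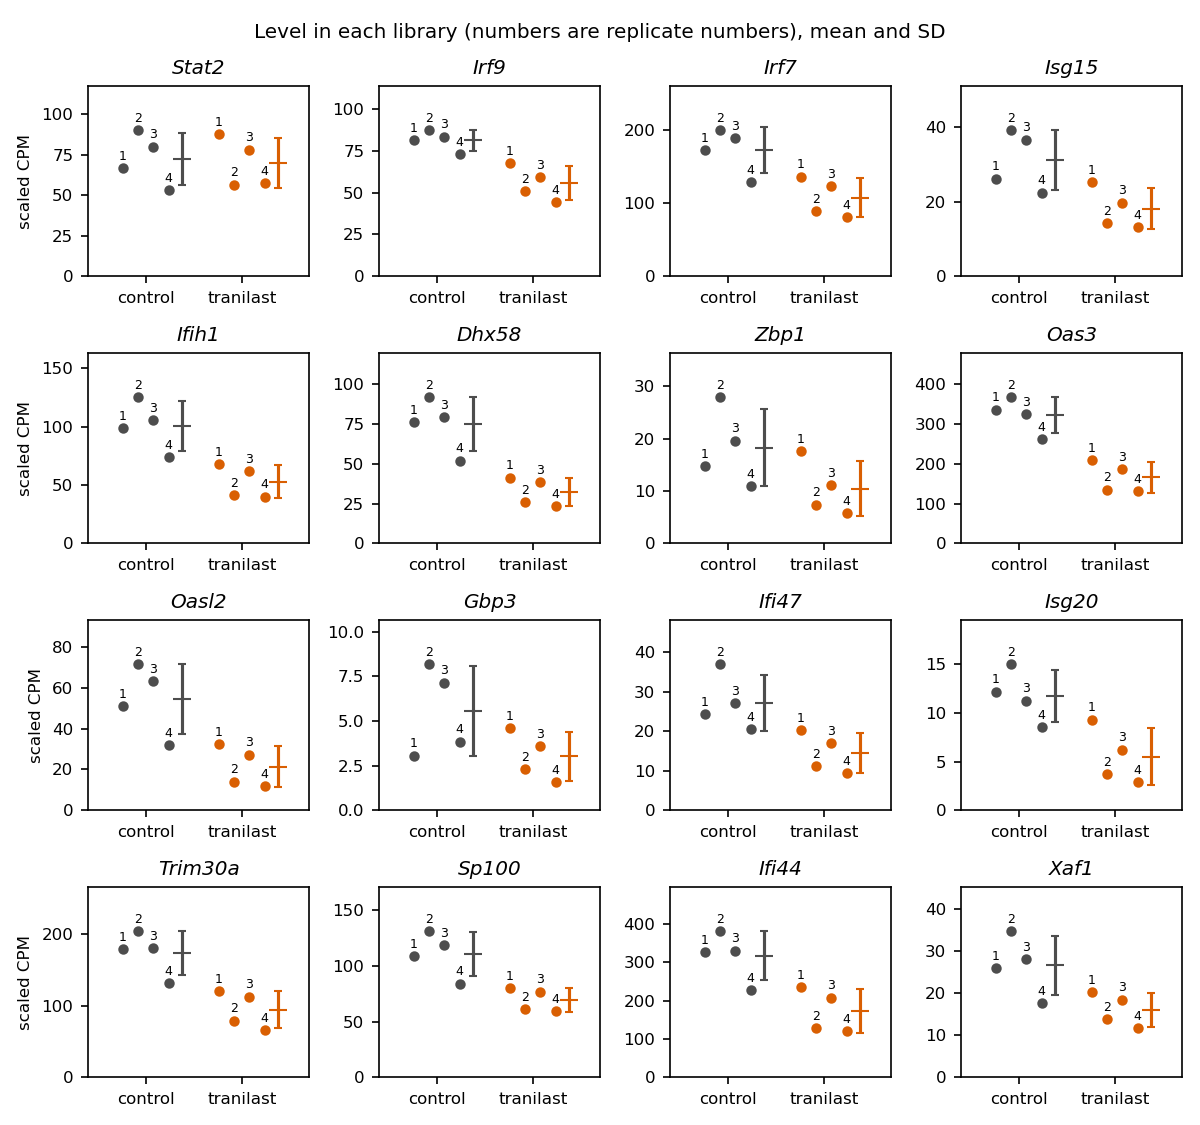
Scaled CPM in each library (points with the replicate number) and the mean with SD for the 14 genes that fell with the largest absolute log2 fold changes, and for Irf9 and Stat2; grey is control and orange tranilast. Control 2 and tranilast 1 are the highest libraries of their groups in all 16 panels, and tranilast 4 is the lowest tranilast library in all of them but Stat2.

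The 40 genes moved together from library to library within each group. Control 2 was the highest control library for 37 of the 40 genes and control 4 the lowest for 36, whereas over all tested genes these libraries held those places for 26.1% and 22.4%. Tranilast 1 was the highest tranilast library for 38 and tranilast 4 the lowest for 35, beside 25.1% and 24.8% over all tested genes. The order control 2, 3, 1, 4 was followed by 30 genes and the order tranilast 1, 3, 2, 4 by 34. Both orders, which were read off these genes after their values were seen, were shared by 26 of the 40 (65.0%) and by 76 of the other 10730 tested genes (0.708%). These figures describe 8 libraries, and the cause of the shared order was not tested.

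**Figure D4:**
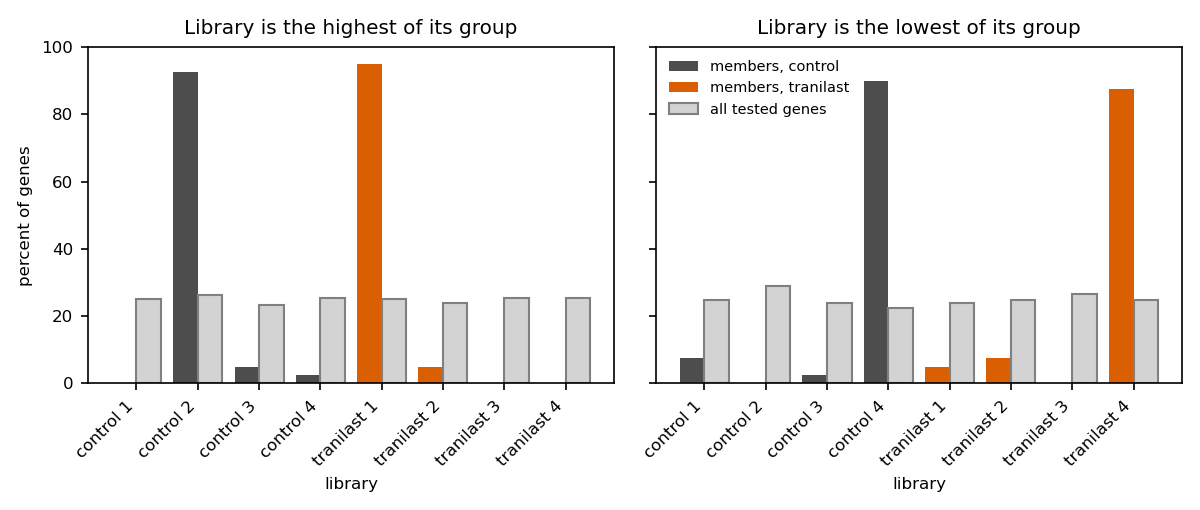
Percent of genes for which each library is the highest (left) or the lowest (right) of its 4-library group, for the 40 interferon-stimulated genes (grey and orange bars) and for all tested genes (light bars). Control 2 and tranilast 1 are highest for 37 and 38 of the 40 genes, and control 4 and tranilast 4 lowest for 36 and 35, while the light bars stay between 22.4% and 28.9%.

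The spread within a group was wide for this set. The median SD of log2(scaled CPM + 0.1) was 0.30 in control and 0.40 in tranilast, against 0.09 and 0.08 over all tested genes. The highest control library exceeded the lowest by more than 1.5 times for 27 of the 40 genes and for 11.3% of all tested genes, and in the tranilast group for 29 genes and 11.0%. For 32 of the 40 genes the range of the control libraries was wider than the difference between the group means. That share was not computed over all tested genes, so it is not shown to be particular to the set. The widest ranges within the tranilast group were those of Ifit1, Ifit3, Mx1 and Cmpk2, at 3.44, 3.38, 3.38 and 3.27 times, and the narrowest included the receptor chains.

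Relative to the mean of the controls, the median of the 40 genes was -0.04, 0.30, 0.10 and -0.39 on the log2 scale in control libraries 1 to 4 and -0.19, -0.82, -0.35 and -1.01 in tranilast libraries 1 to 4. Over all tested genes the same medians were at most 0.0124 from 0. Tranilast 2 and 4 were therefore below all controls in this median, while tranilast 1 and 3 were above control 4. Tranilast 4 was below every control library for 37 genes, tranilast 2 for 34, tranilast 3 for 22 and tranilast 1 for 14. Tranilast 1 exceeded even control 2, the highest control, for 5 genes: Irf1, Ifit1, Ifit2, Ifit3 and Rsad2. Shares over all tested genes were not computed for these single-library counts. All 4 tranilast libraries lay below every control library for 25.2% of all tested genes. The counts therefore describe the set and do not set it apart from the background. The depths were 15056589 and 14895420 counts in control 2 and 4 and 13590513 and 14679386 in tranilast 1 and 4, and the part of depth in the order was not tested. With control 2 and tranilast 1 both left out, a choice made after the values were seen, 32 of the 40 genes were lower and 0 higher. Over all tested genes, 26.6% were lower and 24.8% higher in the same fit.

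**Figure D5:**
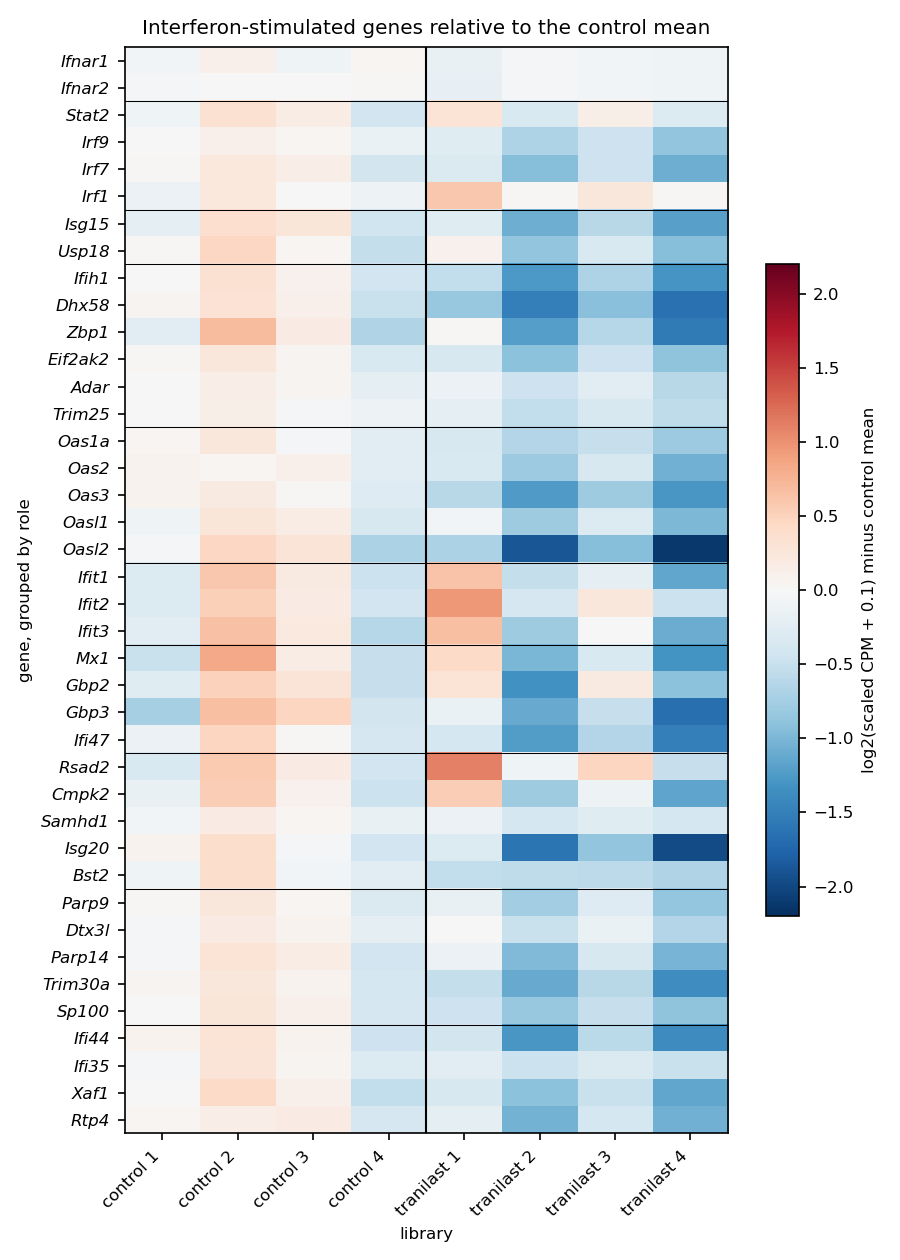
Level of each of the 40 genes in each library as log2(scaled CPM + 0.1) minus the mean of the 4 control libraries, red above and blue below, grouped by role. Columns differ as whole columns: control 2 is above the control mean for all 40 genes, control 4 below it for 38, tranilast 2 and 4 each below it for 39, and tranilast 1 below it for only 28.

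The scaling changed how the falls compare with the table. With library size alone, the median of all genes moved to 0.12, 27 of the 40 genes (67.5%) were lower beside 17.6% of all tested genes, and 1 (Irf1) was higher beside 42.8%. With the deposited FPKM and a pseudocount of 1, 20 of the 40 (50.0%) were lower beside 15.4% of all tested genes, and Irf1 was higher. Relative to the median of all genes, the median of the 40 stayed between -0.58 and -0.54 under the TMM, relative log expression, upper-quartile, library-size and FPKM scalings. The calls of 20 of the 29 genes that fell were kept in all 19 alternatives, and none of the 29 changed sign.

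The wider interferon pathway was read from lists of genes that are not in the set. Of 21 interferon genes of types I, II and III, 20 had 0 counts in all 8 libraries and Ifnb1 had 1 count in control 1. A count of 0 allows up to 3 counts, or 0.196 to 0.24 scaled CPM depending on the library, so that interferon mRNA was not detectable at this depth. Of 8 tested genes of the receptors and the JAK-STAT pathway, 2 (25%) were lower and 2 higher, close to the 28.8% and 28.2% of all tested genes. Ifngr2, a chain of the type II receptor, and the repressor Irf2 fell by 0.41 and 0.32 on the log2 scale, whereas Il10rb, a chain of the type III receptor, and the kinase Tyk2 rose by 0.53 and 0.12. Ifnlr1, the other listed chain of the type III receptor, had 0 counts in all 8 libraries.

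Of 9 tested feedback inhibitors, 2 (22.2%) were lower and 1 (11.1%) was higher, both shares below those of all tested genes. Ptpn6 (the phosphatase SHP-1) and Socs3 fell by 0.67 and 0.48 on the log2 scale, and Pias3 rose by 0.72. Of 17 tested genes of the induction pathway, which senses nucleic acid and turns on interferon genes, 11 (64.7%) were lower and 2 (11.8%) higher, beside 28.8% and 28.2% of all tested genes. Rigi, the sensor related to Ifih1, had 215, 257, 232 and 164 scaled CPM in control and 164, 91.8, 137 and 94.9 scaled CPM in tranilast, at -0.83 ± 0.15 (adjusted p = 8.98e-05). The exonuclease Trex1 fell by 0.59, the DNA sensor Cgas and its adaptor Sting1 each by 0.50, and Irf5, Ticam2, Myd88, Irf8, Traf3, Tbk1 and Irak1 by 0.40 to 0.12. Irak4 rose by 0.31 and Ikbke by 0.16. Over the 4 pathway lists, 15 of 34 tested genes (44.1%) were lower and 5 (14.7%) higher, beside the same 28.8% and 28.2%, with a median log2 fold change of -0.05 beside the -0.57 of the 40 genes.

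A longer list of 80 other interferon-induced genes had 67 tested genes, of which 41 (61.2%) were lower and 4 (5.97%) higher, beside 28.8% and 28.2% of all tested genes, with a median log2 fold change of -0.47. The GTPase Tgtp2 showed the largest change, from 3.89 ± 1.42 to 0.843 ± 0.332 scaled CPM, at -2.22 ± 0.34 (adjusted p = 1.94e-05), on at most 77.7 estimated counts. Cxcl10, a chemokine that attracts T cells, went from 16.9 ± 4.82 to 7.68 ± 3.45 scaled CPM, at -1.14 ± 0.23. Gbp9, Iigp1, Apol9b, Mov10 and Phf11d fell by 1.17, 1.12, 1.06, 1.04 and 1.04. The GTPase Gbp8 rose, from 0.748 ± 0.402 to 2.13 ± 1.17 scaled CPM, on 6 to 48 counts per library. The other 3 genes that rose were Cd274, Aim2 and Ifitm2, which are named after their values were seen. Both library orders of the 40 genes were shared by 33 of these 67 genes (49.3%).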

How the data were processed

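Poly-A RNA libraries were sequenced as read pairs. The deposited table holds, per gene and library, estimated counts, of which 92.7% to 93.9% are whole numbers, and FPKM values, which the authors scaled per transcript length and library depth. The aligner, counter, genome build and use of strand are not given in the sources used here, and no columns of other samples were present. The table carries no comparison columns.

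Estimated counts were rounded and tested in edgeR 4.0.16 (R 4.3.3) with TMM factors, filterByExpr by group and the quasi-likelihood test, with Benjamini-Hochberg adjustment over all tested genes and an adjusted p threshold of 0.05. Errors of fold changes are standard errors (log2 fold change over the square root of F). Scaled CPM are CPM computed on the TMM-scaled library size. A pseudocount of 0.1 was used for log2 values, and permutation tests were exact and two-sided over 4 against 4 libraries (scipy 1.17.1). Alternatives were other scalings, DESeq2 1.42.0, limma 3.58.1 (voom on counts, trend on FPKM), filters and left-out libraries. The script was tested on simulated data. Exon overlaps and positions come from GENCODE M21 and promoters from RefSeq, both on GRCm38.

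The genes and lists were chosen with earlier results of these data known. Every gene of the set is named in order of role. Values per library are given for the 14 genes called with the largest absolute log2 fold changes of at least 0.5 and for Irf7, Irf9, Stat2, Ifnar1 and Ifnar2. From the longer list, the 8 called genes with the largest absolute changes are named, and from the pathway lists every called gene and each ligand with a count. A gene of the receptor and JAK-STAT list is not reported here. No pair of libraries agreed within sampling noise. Counts ranged from 19 to 6095 per library over the 40 genes. In 11 genes some counts were not whole, and 17 had exon bases in common with another annotated gene, so reads shared with a neighbour or copy (Ifit3, Oas1a, Parp9, Dtx3l and Adar among them) are uncertain. The limit given for a count of 0 covers counting error only, whereas the standard errors and SD values also cover the spread between these libraries.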

Additional observations from a re-analysis of the deposited data

Results flagged for a closer look

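Among 68 named genes, 3 had a library that stood apart from the other 3 of its group by Dixon's test, which flags about 1 in 20 groups by chance, and 136 groups were screened. None of the 40 interferon-stimulated genes was among them. Cxcl10 stood apart in tranilast 1, at 12.9 scaled CPM against 5.74 to 6.15 scaled CPM in the other tranilast libraries (gap of 0.915 of the range). Irf2 stood apart in control 4, at 67.8 scaled CPM against 78.5 to 79.9 scaled CPM in the other controls (0.894). Irf8 stood apart in control 2, at 111 scaled CPM against 106.2 to 106.6 scaled CPM in the other controls (0.921).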

How the results depend on the processing

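The number of interferon-stimulated genes called lower stayed between 20 and 33 over all alternatives, beside 29 in the main fit. The share of all tested genes called lower ranged from 15.4% to 29.6%. The median log2 fold change of the interferon-stimulated genes stayed between -0.70 and -0.44. Of 760 gene results over 19 alternatives, 680 kept direction and side of the threshold, 44 lost the call, 18 gained it and 18 turned direction; the cause was not tested. The number called higher moved from 0 to 1 (Irf1) with upper-quartile factors, library size alone, FPKM plus 1, FPKM plus 0.1 and no filter. In these settings 19.9% to 42.8% of all tested genes were called higher. With a library left out the number ranged from 0 to 1, beside 25.7% to 26.9% of all tested genes. The number past a log2 fold change of 1.5 ranged from 0 to 1 with a library left out (Oasl2 without control 4 or tranilast 1) and was 19 at a 1.5-fold change. The number with no overlap in either direction was 7 with library size alone (7 lower, beside 14.7% of all tested genes). It was 7 with either FPKM pseudocount (6 lower and 1 higher, beside 13.9% and 33.4% of all tested genes). With a library left out it was 12 to 24, and 26.3% to 27.2% of all tested genes were separated as lower. With control 2 and tranilast 1 both left out it was 22 (21 lower and 1 higher, beside 29.1% and 28.8% of all tested genes). Pathway genes called higher numbered 9 of 34 with library size alone, beside 42.8% of all tested genes. With a library left out they numbered 3 to 5, beside 25.7% to 26.9%. Pathway genes called lower numbered 10 of 34 with either FPKM pseudocount, beside 15.4% of all tested genes. Other interferon-induced genes called higher numbered 2 to 5 with a library left out, beside the same 25.7% to 26.9% of all tested genes. With control 2 and tranilast 1 both left out 1 was called higher, beside 24.8% of all tested genes.

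Direction turned for 6 uncalled genes. The log2 fold change of Ifnar1 was 0.0283, 0.0269 and 0.0279 with library size alone, FPKM plus 1 and FPKM plus 0.1, that of Ifnar2 0.0248, 0.0387 and 0.0393, and that of Stat2 0.0620, 0.0630 and 0.0668, with 0.0116 for upper-quartile factors. With a library left out, Stat2 ranged from -0.18 to 0.0659, Ifit3 from -0.64 to 0.0252, Ifit2 from -0.22 to 0.36 and Rsad2 from -0.0555 to 0.53. Ifit2 was at -0.0167 with control 2 and tranilast 1 both left out.

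Groups share replicate numbers, but same-numbered libraries did not deviate together (correlations of -0.06, -0.04, 0.01 and 0.10). With the replicate number as a block, 29 of the 40 genes were lower and 0 higher, beside 28.3% and 27.5% of all tested genes. The median log2 fold change of the 40 genes was -0.57. The block also gave 44 other interferon-induced genes lower and 4 higher, and 15 pathway genes lower and 5 higher. Depth limits the least expressed genes, Gbp2, Gbp3 and Mx1, and interferon mRNA itself.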
